A study of Hordeum vulgare with 18 samples.

Results

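Whole spikes of barley line KD-CKX1 5.8 (line 5.8) were compared with spikes of an azygous control line at stage 59 of the BBCH scale, the end of heading. The comparison uses 6 of the 18 libraries of the series, 3 of line 5.8 and 3 of the control, and was made on the 19540 of 26066 annotated features that reached 10 normalized counts in at least 3 of these 6 libraries. The series holds 2 independent transgenic lines of cultivar Golden Promise with a silenced HvCKX1 gene, line 5.8 and KD-CKX1 17_10 (line 17_10), and the control, each at stage 59 and at stage 49, when the first awns are visible. All were grown in field plots with the same fertilizer, herbicide and fungicides, RNA was sequenced with a stranded mRNA kit, and each of the 6 groups has 3 libraries that the series description calls biological replicates. The labels name the tissue as whole spikes in every group, while the series description speaks of grains. Each transgenic line stands for a single line, and the sources used here give neither the promoter nor the form of the silencing construct. They do not say how many plants went into a replicate either, so p-values measure the spread between these libraries.

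The product of HvCKX1 is a cytokinin oxidase/dehydrogenase and belongs to the enzymes that break down cytokinins. Cytokinins are plant hormones that promote cell division, and in cereals they are known for their part in the formation of florets and grains. An azygous control is a sister plant that went through transformation and lost the transgene by segregation, so that it shares the tissue culture history of the transgenic plants. The comparison asks which transcripts differ in spikes with a silenced HvCKX1 at the end of heading. The file pairs no identifier with a gene name, and 0 of 26066 matched the reference table of 58438 barley genes. The silenced gene and the markers of spike tissue could therefore not be read, and no function is given to any feature below. In whole spikes, fewer cells of a type and less RNA per cell cannot be told apart.

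The 6 libraries held 33502151 to 78214174 recovered reads, with 78214174, 33502151 and 46943267 in line 5.8 and 68302420, 41867959 and 56866720 in the control (replicates 1 to 3). Replicate 1 of line 5.8 stood apart from its own group. Its log2 values correlated at 0.947 and 0.953 with the 2 other libraries of line 5.8 and at 0.967 to 0.975 with the control libraries, whereas replicates 2 and 3 of line 5.8 correlated at 0.981 with each other and at 0.930 to 0.952 with the control. In 939 features it lay at least 4-fold from the mean of its 2 companions, against 397 and 419 features for replicates 2 and 3 of line 5.8 and 90 to 284 for the control libraries. On the first principal component of the 6 libraries, which held 60.7% of the variance, replicates 1 to 3 of line 5.8 lay at -27.8, 81.1 and 89.3, and those of the control at -34.6, -59.0 and -49.1. Replicate 1 was also the deepest of the 6 libraries. The results that rest on it most are therefore given with and without it.

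A place between the stages was read from line 17_10 alone, whose libraries belong to neither group. Over 2920 features that differed at least 4-fold between its mean log2 values at stages 59 and 49, each library was projected on a line from 0 (mean of line 17_10 at stage 49) to 1 (its mean at stage 59). Line 5.8 stood at 0.986, 0.928 and 0.883, and the control at 0.997, 1.06 and 1.05. All 3 libraries of line 5.8 thus lay below the 3 of the control, with replicate 1 nearest to them. The 3 libraries of line 17_10 stood at 1.10, 0.854 and 1.05, and both groups lay within this span. They also set the scale, and the low end of the span rests on replicate 2 alone, so it is a description. The part of the difference in place between line 5.8 and the control in the results below was not tested.

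**Figure D1:**
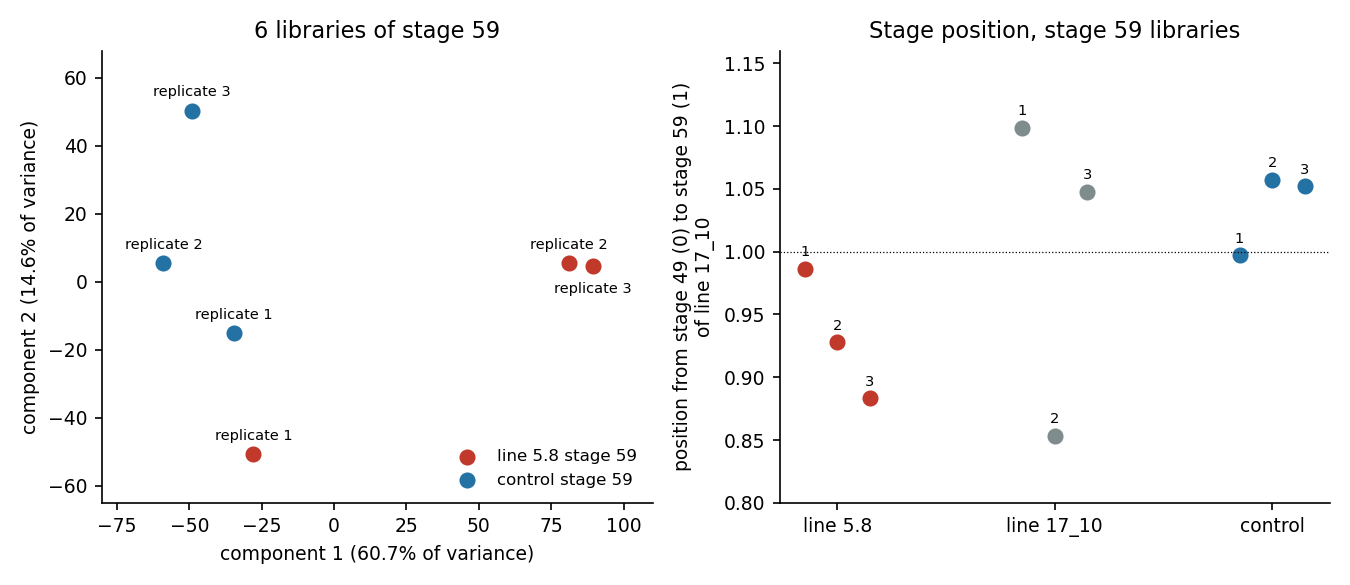
Left, the 6 libraries on the first and second principal components of their log2(normalized count + 1) values. Right, the place of each stage 59 library between stage 49 (0) and stage 59 (1) of line 17_10, in which each point is a library with its replicate number. Replicate 1 of line 5.8 lies at -27.8 on the first component, beside the control libraries (-59.0 to -34.6), and replicates 2 and 3 lie at 81.1 and 89.3.

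Line 5.8 differed from the control in 65 of the 19540 tested features, which is 0.333% of them (limma on log2(normalized count + 1), Benjamini-Hochberg adjusted p below 0.05). Of these, 48 were higher in line 5.8 (0.246% of those tested) and 17 were lower (0.087%). The differences were large among the higher features, with a median log2 fold change of 3.87 and a range from 0.76 to 8.86. There 22 of the 48 rose at least 16-fold, 37 at least 4-fold, 8 between 2-fold and 4-fold, and 3 less than 2-fold. Among the lower features the median was -2.51 and the range -7.10 to -0.91, with 3 of 17 lower by at least 16-fold, 12 by at least 4-fold and 2 by less than 2-fold. The median over all tested features was 0.01.

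The levels of these features in the control and in line 5.8 varied widely, and the filter sets a part of their range. Of the 48 that rose, 25 had a control mean below 10 normalized counts, 13 had one between 10 and 100, and 10 had one of 100 or more. In 8 of them the control held 0 reads in its 3 libraries. Their means in line 5.8 ran from 11.8 to 6985 normalized counts, with a median of 237. Of the 17 that fell, 7 had a line 5.8 mean below 10, 5 between 10 and 100, and 5 of 100 or more, and none was without reads in line 5.8. The control means of these 17 ran from 13.7 to 4754, with a median of 187.

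The filter admitted some features through a single group, and those had to differ. Through line 5.8 alone, with 10 normalized counts in its 3 libraries and in none of the control, 56 features passed, of which 22 were past the threshold and 34 were not. Through the control alone 55 passed, of which 6 were past the threshold and 49 were not. A further 6526 features were not tested, 2504 of them with 0 reads in the 6 libraries. The share past the threshold was 3.28% of 122 features with a mean below 10 normalized counts over the 6 libraries, 0.746% of 3485 between 10 and 100, 0.438% of 6623 between 100 and 1000, and 0.0644% of 9310 at 1000 or more. The median standard error of a log2 fold change was 0.75, 0.57, 0.28 and 0.16 in the same order of levels, so precision was poorest at the lowest levels. Without replicate 1 of line 5.8 the shares past the threshold were 28.7%, 11.9%, 18.3% and 17.0% in that order.

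The largest rise was in MLOC_497. It had 1372, 1540 and 1811 normalized counts in the 3 libraries of line 5.8, against 0.769, 6.63 and 1.81 in those of the control. The control values rest on 8 reads in all, so the feature entered the test through line 5.8 alone and had to differ, and the lowest library of line 5.8 lay far above the highest of the control. The means were 1575 ± 222 in line 5.8 against 3.07 ± 3.13 in the control (SD, n = 3 each), with a log2 fold change of 8.86 (SE 0.70; limma adjusted p = 5.5e-06). Without replicate 1 of line 5.8 the log2 fold change was 8.96 (limma adjusted p = 6.4e-05).

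Among features with a mean of at least 50 in both groups, MLOC_25093 rose most. It stood at 709, 776 and 790 normalized counts in line 5.8, against 59.2, 50.4 and 101 in the control. The 3 libraries of line 5.8 lay close together and all above the control, whose replicate 3 was its highest. Means were 758 ± 43.4 in line 5.8 against 70.3 ± 27.2 in the control (SD, n = 3 each), a log2 fold change of 3.48 (SE 0.28, limma adjusted p = 6.7e-06). It was 3.52 without replicate 1 of line 5.8 (limma adjusted p = 6.8e-05).

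The deepest fall was in MLOC_63821, which was abundant in the control. Line 5.8 held 25, 45 and 34 normalized counts, against 4983, 4605 and 4675 in the control. The transcript was thus nearly lost in each library of line 5.8 and steady in the control. Means were 34.6 ± 9.99 in line 5.8 against 4754 ± 201 in the control (SD, n = 3 each), and the log2 fold change was -7.10 (SE 0.51, limma adjusted p = 2.1e-06). Without replicate 1 of line 5.8 it was -6.89 (limma adjusted p = 3.3e-05).

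Among features with a mean of at least 50 in both groups, MLOC_5395 fell most. It had 87.9, 69.2 and 47.8 normalized counts in line 5.8, against 363, 361 and 427 in the control. The groups did not overlap, and the 3 values in line 5.8 spread wider, relative to their mean, than those of the control. The means were 68.3 ± 20.04 in line 5.8 against 384 ± 37.8 in the control (SD, n = 3 each), with a log2 fold change of -2.51 (SE 0.45, limma adjusted p = 0.023). This call was lost with a replicate block (limma adjusted p = 0.055) and when any library but replicate 1 of line 5.8 was left out of the 6 (limma adjusted p = 0.065 to 0.15). Without replicate 1 the log2 fold change was -2.71 (limma adjusted p = 0.0040).

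**Figure D2:**
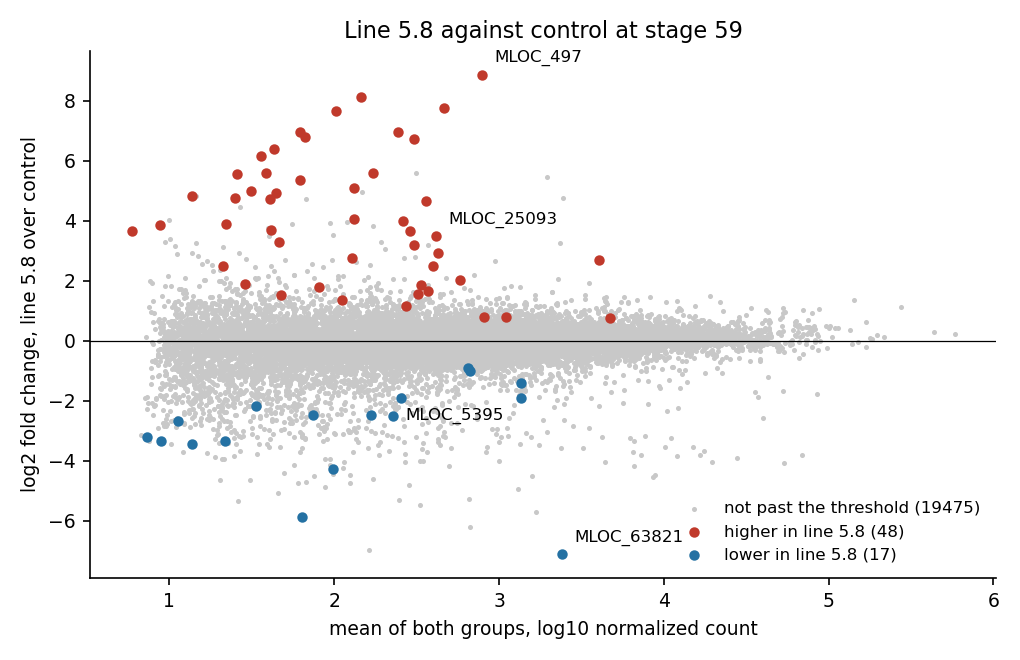
Log2 fold change of line 5.8 over control at stage 59 against the mean of both groups (log10 of normalized counts), in which each point is 1 of 19540 features. The 48 features higher in line 5.8 lie up to 8.86 and the 17 lower ones down to -7.10, and many grey points below -2 did not pass the threshold.

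Large differences that did not pass the threshold were mostly toward lower values in line 5.8. Of all tested features, 107 were at least 4-fold higher in line 5.8 by the fitted value and 426 at least 4-fold lower. Of those, 70 of the higher and 414 of the lower did not pass the threshold. The 3 libraries of line 5.8 all lay above the 3 of the control in 1659 features and all below in 1583, together 16.6% of those tested. Each of the 65 features past the threshold was among them. With replicate 1 left out, so that 2 libraries stand against 3, the counts were 5835 and 5382, together 57.4%. Of the features at least 4-fold apart, 100 of the 107 higher and 180 of the 426 lower had groups that did not overlap.

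Features present in one group and silent in the other were counted without a test. Silent means 0 reads in the 3 libraries, and present means at least 10 normalized counts in each. In 9 features transcript was present in line 5.8 and silent in the control, and in 1 it was silent in line 5.8 and present in the control. With silent set at no more than 3 reads in each library, the counts were 22 and 7. With present set at 50 normalized counts, they were 5 and 0. Without replicate 1 of line 5.8 they were 9 and 25 by the first definition, so the balance turned round. Of the 9 features, 8 passed the threshold, and 8 were also present in the 3 line 5.8 libraries of stage 49. In 1 of the 9, line 17_10 also held 0 reads at stage 59.

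The 48 higher features together took little of the transcriptome. Their sum was 0.052 ± 0.0046% of the normalized counts in line 5.8, 0.0293 ± 0.0024% in line 17_10 and 0.0143 ± 0.00093% in the control at stage 59 (SD, n = 3 each). In the 3 libraries of line 5.8 it was 0.0467%, 0.0540% and 0.0552%. The 2 most abundant of them gave 43.9% of this sum in line 5.8. The 17 lower features summed to 0.00447 ± 0.00022% in line 5.8, 0.0189 ± 0.0027% in line 17_10 and 0.0231 ± 0.0004% in the control (SD, n = 3 each), and a single feature, MLOC_63821, gave 38.8% of it in the control. The sets were chosen on the libraries of line 5.8 and the control, so those sums are a description.

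The same line was read at stage 49, in libraries that share none with stage 59 and enter the stage 59 result only through the shared estimate of spread. At stage 49, 80 of the 19540 features passed the threshold, 0.409% of those tested, with 55 higher in line 5.8 (0.281%) and 25 lower (0.128%). Of the 48 features higher at stage 59, 36 passed at stage 49 in the same direction and 47 had the same sign. Of the 17 lower, 6 passed in the same direction and 12 had the same sign, while 3 had no reads in either group at stage 49. None passed in the opposite direction. Over all tested features the sign was the same at both stages in 54.2%. The median log2 fold change at stage 49 was 3.35 for the 48 higher features and -1.34 for the 17 lower ones, against -0.01 over all tested.

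Read in the other direction, 78 of the 80 features past the threshold at stage 49 had the same sign at stage 59. The 80 came from features that the stage 59 filter had kept. For those it admitted through a single group the sign at stage 59 was fixed, so this count is a description. Across the 65 features of stage 59 the fold changes at the 2 stages correlated at 0.91, and across all 19540 at 0.08. Both values are across features, which are not independent replicates. The 65 were also chosen by their stage 59 difference, so the 0.91 is a description and cannot be weighed against the 0.08. In the fit with a replicate block, stage 49 gave 1663 features (838 higher, 825 lower; all 80 remained); same-numbered libraries of that stage deviated together. In the same fit 46 features passed the threshold the same way at both stages, against 42 without the block and 58 without replicate 1 of line 5.8 at stage 59. Without control replicate 2 the count at stage 49 was 566 (limma), and in the compared groups alone it was 25.

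**Figure D3:**
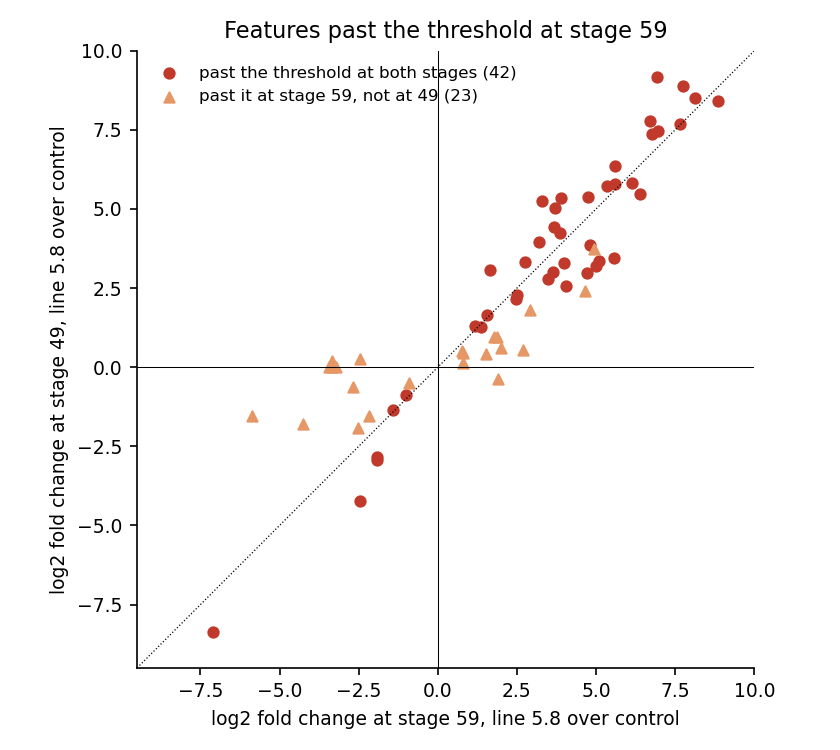
Log2 fold change of line 5.8 over control at stage 59 (horizontal) and stage 49 (vertical) for the 65 features past the threshold at stage 59. Circles are the 42 features past it at both stages and triangles the 23 past it at stage 59 and not at 49. Points on the dotted line changed alike, and several falling features lie near 0 at stage 49.

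The named features showed both patterns. At stage 49, MLOC_497 averaged 1350 ± 39.2 normalized counts in line 5.8 against 3.03 ± 0.787 in the control (SD, n = 3 each; limma adjusted p = 1e-05). MLOC_25093 had 761 ± 126 in line 5.8 against 110 ± 22.6 in the control (SD, n = 3 each; limma adjusted p = 8.3e-05). MLOC_63821 was again nearly lost, at 5.59 ± 4.72 in line 5.8 against 1935 ± 860 in the control (SD, n = 3 each; limma adjusted p = 3e-07). MLOC_5395 did not pass at stage 49, with 16.1 ± 5.85 in line 5.8 against 71.5 ± 42.1 in the control (SD, n = 3 each; log2 fold change -1.92, limma adjusted p = 0.12).

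Whether the difference from the control was another at stage 59 than at stage 49 was tested by the interaction of stage and genotype. In that test 0 features passed by limma, while 2085 had an unadjusted p below 0.05. edgeR also gave 0 (unadjusted p below 0.05 in 1837) and DESeq2 gave 18, and limma with a replicate block 72. Among the 65 features of stage 59, 26 had an unadjusted interaction p below 0.05 (limma), against 2085 of all 19540. The interaction contains the stage 59 difference by which the 65 were chosen, so their count is a description. The limma count was 265 without replicate 1 of line 5.8 at stage 59 and 3 without control replicate 2 at stage 49. A feature past the threshold at stage 59 and not at 49 is therefore not shown to differ between the stages.

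Line 5.8 was set directly against line 17_10 at stage 59, without a control library, to see whether the silenced lines differed. In all, 71 features passed the threshold, 0.363% of those tested, with 54 higher in line 5.8 (0.276%) and 17 lower (0.087%). There 1364 passed without replicate 1 of line 5.8, 445 higher and 919 lower, so the balance turned round. The filter read no library of line 17_10, so a feature present in that line alone was not tested. With the filter over 18 libraries 72 passed, 52 higher in line 5.8 and 20 lower. Of the 48 features higher in line 5.8 than in the control, 28 were also higher than in line 17_10, and of the 17 lower, 8 were also lower. None differed between the lines in the opposite direction. Without replicate 1 these counts were 30, 10 and 0. The same line 5.8 libraries enter both comparisons, so these counts are not independent of each other.

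The 48 higher features fell into groups by these tests. In 23 of them line 5.8 was higher than the control at both stages and higher than line 17_10 at stage 59. The median over these 23 of the group means at stage 59 was 223 normalized counts in line 5.8, 4.27 in line 17_10 and 3.07 in the control. A further 13 were higher than the control at both stages and did not pass against line 17_10. There the medians at stage 59 were 124 in line 5.8, 102 in line 17_10 and 5.22 in the control. Their log2 fold changes of line 5.8 over line 17_10 ran from -0.36 (MLOC_26429) to 2.68 (MLOC_45211, limma adjusted p = 0.12). Not passing therefore does not show an equal level in the lines, and line 17_10 was not tested against the control. Another 5 passed against line 17_10 and not at stage 49, and 7 passed in neither. These groups were formed by tests on the same libraries, and 22 of the 48 features entered through line 5.8 alone. The medians are therefore a description.

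The 17 lower features divided otherwise. In 5 of them line 5.8 was lower than the control at both stages and lower than line 17_10, with medians at stage 59 of 107 normalized counts in line 5.8, 1073 in line 17_10 and 879 in the control. In 3, line 5.8 was lower than line 17_10 and the stage 49 comparison did not pass, in 1 the reverse held, and 8 passed in neither. In those 8 the medians at stage 59 were 2.89 in line 5.8, 9.69 in line 17_10 and 32.9 in the control. Of the 17 features, 6 entered the test through the control alone, so a level above line 5.8 was set by the filter. All 17 were chosen and divided by tests on the same libraries, so these medians are a description.

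Between the lines, MLOC_312 was the feature with the largest rise. Line 5.8 had 1750, 1492 and 1497 normalized counts, against 0, 2.05 and 0 in line 17_10, where the value rests on 3 reads of replicate 2. Line 5.8 held 2310 times the mean of line 17_10 (95% exact Poisson interval of 789 to 11200, which covers counting error of the 3 reads alone), with limma adjusted p = 2.5e-10. The control, at 1532 ± 64.9, did not differ from line 5.8, at 1580 ± 148, beyond the spread (SD, n = 3 each; log2 fold change 0.04 ± 0.34 SE, adjusted p = 0.97 by limma). At stage 49 the 3 libraries of line 17_10 together held 4 reads of MLOC_312, while line 5.8 averaged 2195 ± 267 and the control 2311 ± 87.2 (SD, n = 3 each), so this feature sets line 17_10 apart.

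Among features with a mean of at least 50 in both lines, MLOC_74542 rose most in line 5.8. It had 515, 617 and 536 normalized counts in line 5.8, against 98.3, 95.2 and 101 in the other silenced line (log2 fold change 2.49 ± 0.26 SE, adjusted p = 9.5e-05 by limma). The control lay between them, at 153, 261 and 134, and line 5.8 also rose above it (log2 fold change 1.66 ± 0.26 SE, adjusted p = 0.0079 by limma). The call against the control was lost without replicate 2 of line 5.8 (adjusted p = 0.071 by limma) and without replicate 1 of the control (adjusted p = 0.052 by limma), and without each of the other 4 libraries the adjusted p was 0.0025 to 0.042.

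MLOC_60586 was the feature with the deepest fall between the lines. Line 5.8 had 2.70, 1.73 and 0 normalized counts, which are 5 reads in all, against 313, 270 and 319 in the other silenced line (log2 fold change -7.12 ± 0.49 SE, adjusted p = 5.7e-07 by limma). The control stood between, at 122, 117 and 138, and line 5.8 was lower than it too, though the feature entered that test through the control alone and had to differ (log2 fold change -5.87 ± 0.49 SE, adjusted p = 7.9e-06 by limma). At stage 49 line 5.8 had 21.6 ± 3.53 and the control 75.2 ± 45.5 (SD, n = 3 each; log2 fold change -1.53, limma adjusted p = 0.28). Its interaction p was the smallest among the features past the threshold at either stage, at 1.7e-05 unadjusted and 0.24 after adjustment (limma). The adjusted interaction p was 0.031 with a replicate block and 0.016 without replicate 1 of line 5.8 at stage 59 (limma), 0.0019 by DESeq2 and 0.37 by edgeR.

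MLOC_5395 was also the largest fall between the lines among features with a mean of at least 50 in both. Line 17_10 had 556, 371 and 691 normalized counts, all above the 3 values of line 5.8 (log2 fold change of line 5.8 over line 17_10 -2.96, SE 0.45, limma adjusted p = 0.0043). MLOC_497 stayed low in line 17_10, at 0, 5.48 and 0, and MLOC_63821 high, at 5313, 3286 and 2637. MLOC_25093 had a middle level in line 17_10, at 286, 251 and 151, below line 5.8 by the direct test (log2 fold change 1.77 ± 0.28 SE, adjusted p = 0.0067 by limma). Without replicate 1 of line 5.8 the log2 fold changes of the 7 named features over line 17_10 ran from -7.51 to 10.01, each with the same sign and past the threshold (limma).

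**Figure D4:**
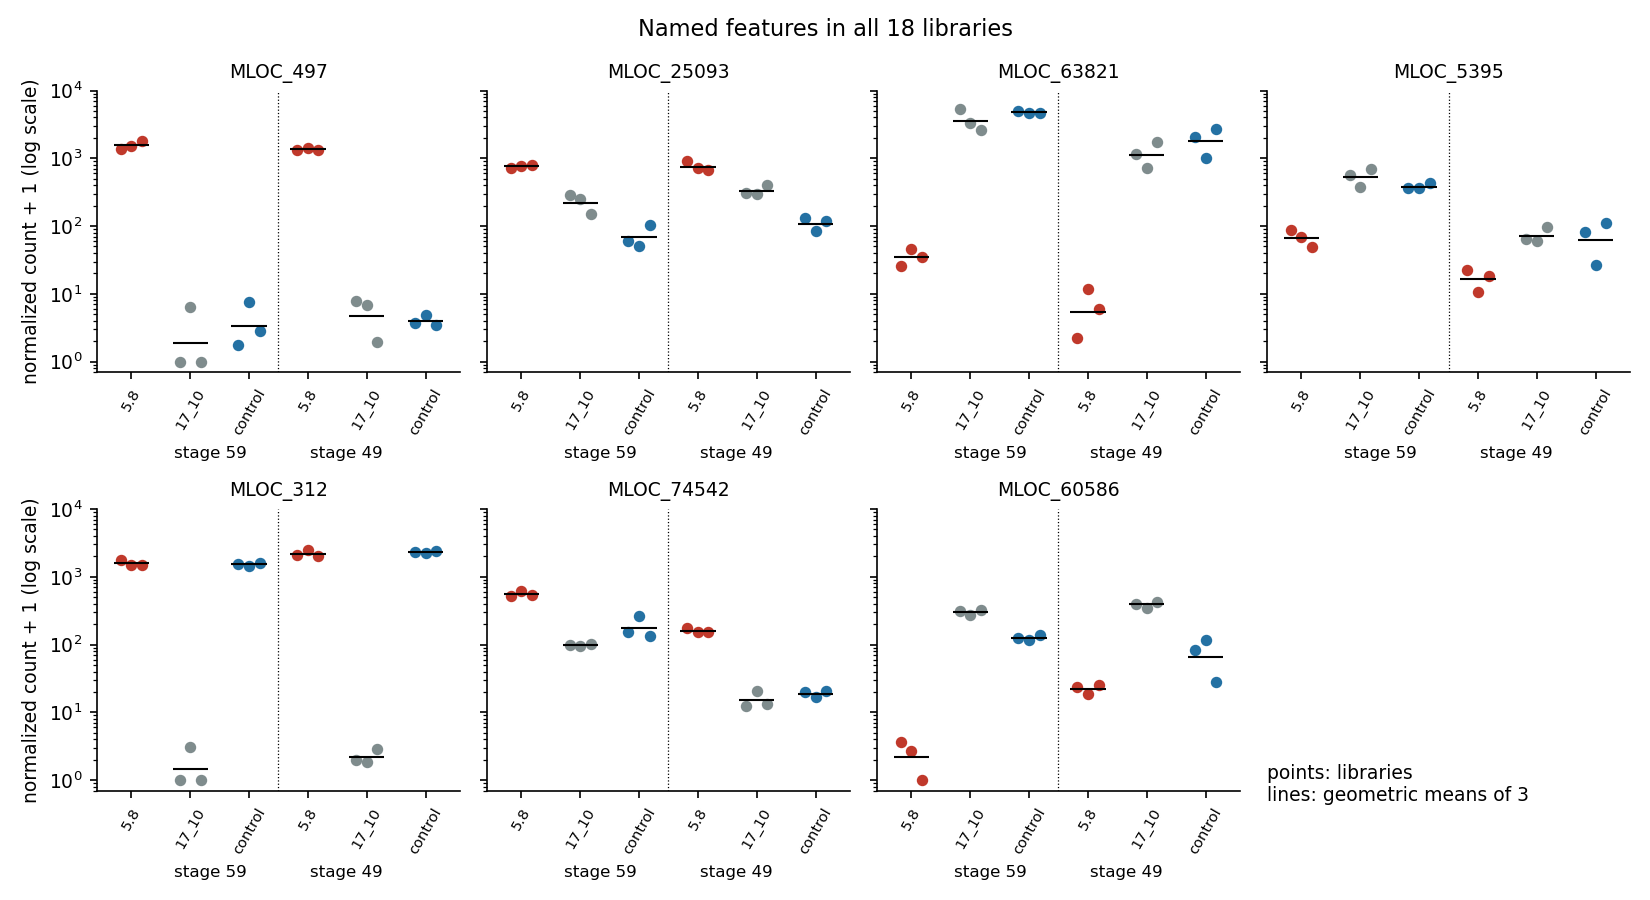
Normalized count + 1 (log scale) of the 7 named features in all 18 libraries, with stage 59 left of the dotted line and stage 49 right of it; lines are geometric means of 3 libraries. Line 5.8 alone is high in MLOC_497 and low in MLOC_63821 at both stages, and line 17_10 alone is low in MLOC_312.

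The number of features past the threshold depended on replicate 1 of line 5.8. Without it, 3244 of 19540 passed, 16.6% of those tested, with 1302 higher in line 5.8 and 1942 lower, and all 65 remained. Changes of at least 4-fold then numbered 87 higher and 522 lower. Without replicate 2 of line 5.8, 42 passed (37 higher, 5 lower), and without each of the other 4 libraries of the comparison 46 to 81. Without control replicate 3 the split was 40 higher and 41 lower, against 48 and 17 with it. Of the 65 features, 40 passed in each of the 6 fits that leave out 1 of the compared libraries, 35 higher and 5 lower. edgeR on recovered reads gave 56 and DESeq2 368 (223 higher, 145 lower), and 53 of the 65 passed by both.

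In the additional features replicate 1 mostly lay nearer to the control than to its companions. Of the 3244, 3179 did not pass with all libraries. In 1576 of these replicate 1 lay within the range of the 3 control libraries. On a log2 scale from the control mean (0) to the mean of replicates 2 and 3 of line 5.8 (1), its median place was 0.02, and in 200 of the 3179 it lay past 0.5. Over all 3244 the median place was 0.03. The 3244 were chosen on the control and on replicates 2 and 3. The 3179 were chosen in addition for not passing with replicate 1 included. Both places are therefore a description.

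Features chosen at stage 49 gave another picture of replicate 1. For the 80 features past the threshold there, which were chosen without any stage 59 library in the contrast, the median log2 difference from the control mean of stage 59, counted in the direction of stage 49, was 2.33, 2.21 and 2.44 in replicates 1 to 3 of line 5.8. The direction held in 78, 75 and 75 of 80 features. In the control libraries, each set against the other 2, the medians were 0, 0 and -0.04, and the direction held in 38, 38 and 28. The filter that had kept these features read the stage 59 libraries, replicate 1 included. For features it admitted through a single group, the side of the control on which replicate 1 lay was fixed in advance. The other features were not read apart, so these medians and counts are a description. In that description replicate 1 lay about as far from the control, in the direction of stage 49, as its companions did.

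**Figure D5:**
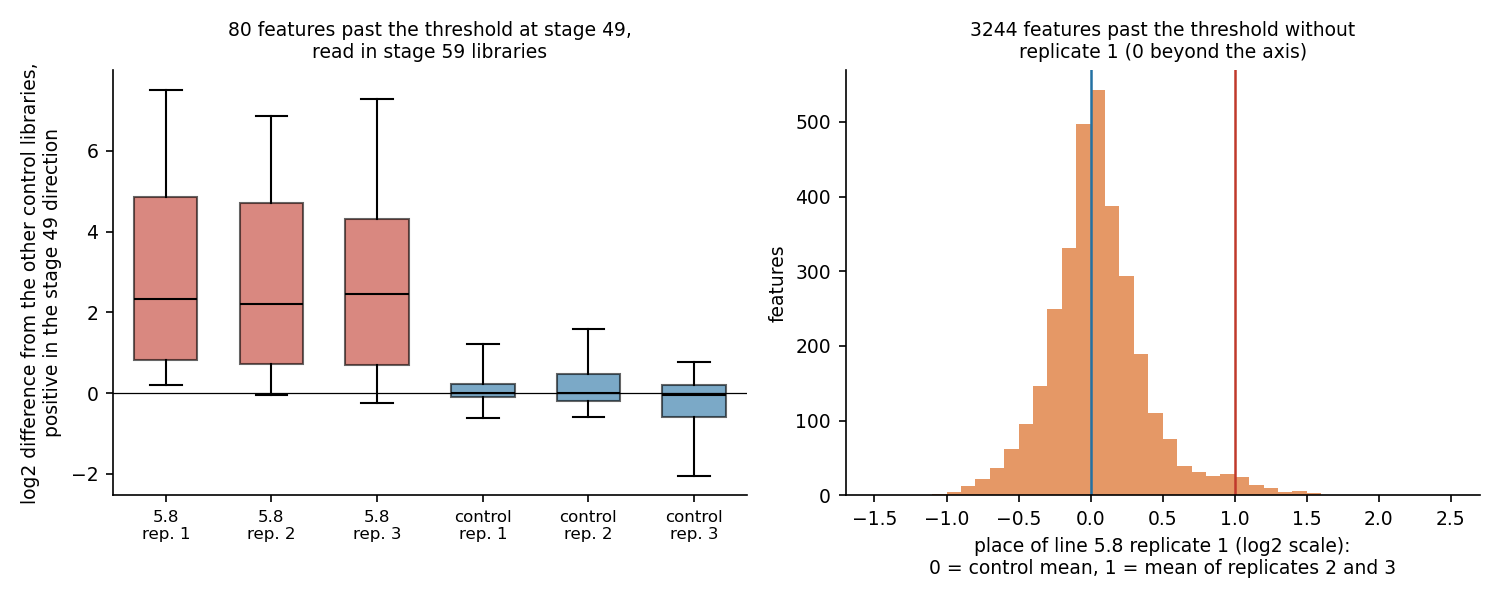
Left, the 80 features past the threshold at stage 49, read in each stage 59 library as the log2 difference from the other control libraries, positive in the stage 49 direction (boxes, quartiles; whiskers, 5th to 95th percentile). Right, place of replicate 1 of line 5.8 between the control mean (0) and replicates 2 and 3 (1) in 3244 features past the threshold without it. The 3 libraries of line 5.8 are alike on the left (medians 2.21 to 2.44), and replicate 1 lies mostly about 0 on the right.

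Change over heading was set beside these counts, as at least a 4-fold difference between the stage means (normalized count + 1) of line 17_10, with no test. By this measure 7.85% of the tested features were higher at stage 59 and 6.93% lower. Of the 48 features higher in line 5.8 than in the control, 6 were of the first kind and 1 of the second, and of the 17 lower, 4 and 0. Among features past the threshold without replicate 1, 12.1% of the 1942 lower ones were higher at stage 59 than 49 in line 17_10 and 6.02% lower, and 1.15% of the 1302 higher ones were higher and 5.61% lower. Across all tested features the log2 fold change of line 5.8 over control correlated at -0.26 with the stage change of line 17_10. The part of stage in the calls was not tested.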

How the data were processed

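The members and lists were chosen with earlier results of these data known. The authors deposited, per the labels, read counts per gene that DESeq had normalized (a signal here, with 1 column for each library). The submitters' processing notes name STAR 2.4.2a, Subread 1.5.2 and DESeq2. The sources used here give no genome build, annotation or strand setting, so reads of near-identical or overlapping genes may be split or lost.

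Values were whole multiples of the smallest non-zero value of each library within 0.001 reads (100% of values), which gave recovered reads. Log2(normalized count + 1), which understates changes of low features, entered a limma 3.58.1 fit (R 4.3.3) of all 18 libraries as 6 group means, with 12 residual degrees of freedom, trended empirical Bayes moderation and two-sided tests, with p adjusted over 19540 features. Leaving out a library kept this list of features. Alternatives used edgeR 4.0.16 and DESeq2 1.42.0 on recovered reads, among others. The fit was tested on simulated data.

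Named features passed the threshold, with no overlap between groups and a mean of at least 50 in the higher group. The largest rise and fall were taken, then those with a mean of at least 50 in both groups, for each comparison of stage 59. Gene lists could not be formed, since no identifier matched a name. A space stands inside 343 MLOC identifiers.

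Replicates differed beyond sampling noise (chi-square per feature at least 39.5). Same-numbered libraries deviated together at stage 49 (correlations 0.169, 0.462 and 0.433) and not at stage 59. All results are unpaired, except those of the fits with a replicate block. Pairing at stage 49 would rest on the data and not the labels, and not every library there correlated best with its own number. Depth limits low features, and the intervals and floors cover counting error only.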

Additional observations from a re-analysis of the deposited data

Results flagged for a closer look

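The 7 named features differed between line 5.8 and line 17_10 at stage 59 in the direct test (limma, adjusted p from 2.5e-10 to 0.0067), which is a description. Part of them were chosen by this same test, and the others on the same line 5.8 libraries. The log2 difference, line 5.8 minus line 17_10, was 9.71 for MLOC_497, 1.77 for MLOC_25093, -6.69 for MLOC_63821 and -2.96 for MLOC_5395, which were named against the control. It was 10.09 for MLOC_312, 2.49 for MLOC_74542 and -7.12 for MLOC_60586, which were named by that test. In all, 71 features differed between the lines. In the interaction with stage, none of the 7 passed by limma with all libraries at equal weight and no block, or by edgeR. MLOC_60586 passed without replicate 1 of line 5.8 at stage 59 (limma adjusted p = 0.016). With a replicate block it passed too (limma adjusted p = 0.031), and by DESeq2 MLOC_60586 (adjusted p = 0.0019) and MLOC_74542 (adjusted p = 0.049) passed. With array weights, MLOC_25093, MLOC_63821, MLOC_74542 and MLOC_60586 passed (limma adjusted p from 3.9e-05 to 0.016).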

How the results depend on the processing

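Against the control at stage 59, 15 of 22 alternatives gave a count within 1.5 times of 65. The exceptions were 39 with a mean of at least 50, 9283 with array weights, 368 by DESeq2, 31 with a minimum log2 fold change of 1, and a range from 42 to 3244 when libraries were left out. The array weights ran from 0.086 to 82.0. Fitting the compared groups alone without replicate 1 of line 5.8, which was chosen after seeing the data, gave 4884. With no filter on low values 85 passed, 58.8% of them higher, against 73.8% of 65. Between the lines the exceptions to 71 were 42 in the compared groups alone, 5649 with array weights, 244 by DESeq2, 42 with the minimum fold change, and 54 to 1364 with libraries left out. At stage 49 those to 80 were 25 in the compared groups alone, 8975 with array weights, 329 by DESeq2, 36 with the minimum fold change, and 65 to 566. For the 42 features of both stages they were 26 with a mean of at least 50, 17 in the compared groups alone, 2928 with array weights, 83 by DESeq2 and 23 with the minimum fold change. For the interaction (0) they were 8114 with array weights, 18 by DESeq2 and 0 to 265 with libraries left out.

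The replicate block gave 62 features at stage 59 (54 of the 65 remained), 74 between the lines, 1663 at stage 49, 46 at both stages and 72 for the interaction; stage 59 libraries of line 5.8 and the control shared only a number (correlations of same-numbered libraries -0.154, -0.098 and -0.038; there and at stage 49, not every library correlated best with its own number). MLOC_5395 kept its direction and passed against the control in 14 of 21 alternatives, and between the lines in 20 of 21 (adjusted p = 0.13 with the minimum fold change). The 6 other named features passed in all 21 in the comparison that named them. A fit of stage 59 libraries alone could not be made for results that use stage 49. The causes were not tested.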

Other observations

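Features with EPlHVUG identifiers made up 138 of the 19540 tested. In line 5.8 against the control at stage 59, limma called 0 of them, against 0.333% of all tested, and 10.9% had an unadjusted p below 0.05 (15 features), against 16.3% of all. edgeR called 0, against 0.287% of all, and DESeq2 called 2, against 1.88% of all. The shares of calls are too low for a 0 among 138 to stand apart.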
